A study of Mus musculus with 12 samples.

Results

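The clustered core and linker histone genes are the genes for H1, H2A, H2B, H3 and H4 named after the clusters Hist1 to Hist4 of the mouse genome. They were taken as every gene symbol of the deposited table that starts with Hist1h, Hist2h, Hist3h or Hist4h, without Hist1h1t, which gave 63 of the 28643 usable symbols. There were 3 genes for H1, 19 for H2A, 18 for H2B, 11 for H3 and 12 for H4. By symbol 52 belong to Hist1, 7 to Hist2, 3 to Hist3 and 1 to Hist4, which the GENCODE M21 annotation of GRCm38 places on chromosomes 13, 3, 11 and 6. Of the Hist1 genes, 51 lie within chr13:21715763-23934851, and Hist1h2al, 1 of the 3 members annotated as pseudogenes, lies outside that span at chr13:51202727-51203065.

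The libraries came from round spermatids, the haploid cells that follow meiosis, which were isolated from testes of C57BL/6 males aged 8 weeks by cell sorting, with cycloheximide added to hold ribosomes on mRNA. The control males, Igf2bp3+/-, carried 1 disrupted and 1 intact copy of Igf2bp3, an RNA-binding protein gene, and the knockout males, Igf2bp3-/-, carried no intact copy. The allele is a frameshift made with Cas9 in the sixth exon, the control libraries are given as Igf2bp3+/- in the genotype labels but carry a WT prefix in the deposited table (the genotype labels were followed here), and by the methods the knockout males were chosen among those with impaired fertility. For each genotype 3 libraries were made from total input (RNA-seq) and 3 from mRNA on polysomes with 4 or more ribosomes (RNC-seq), 12 libraries in all, after poly(A) selection. By the methods, input and polysome RNA were parts of the same extracts, and whether equal replicate numbers mark the same extract is not stated. Values are FPKM, a read density per transcript length and library size.

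Most genes of these clusters are transcribed while DNA is copied in S phase. Their mRNAs usually end in a conserved stem-loop bound by the protein SLBP in place of a poly(A) tail, and the stem-loop governs their processing, translation and decay. Hist1h2aa and Hist1h2ba encode the testis forms TH2A and TH2B. Round spermatids do not replicate DNA, and in later spermatids histones are exchanged for transition proteins and then protamines. Poly(A) selection recovers the polyadenylated part of such mRNAs, so that the FPKM of a histone gene here is not a measure of its stem-loop-ended form.

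The stem-loop is shown for members that the results below turn on, since it is the end signal of a canonical histone mRNA. A match to the stem-loop was found in an annotated transcript of 43 members, and 25 of these, of types H1, H2A, H2B and H3, share the same letters. Capitals mark the arms of the stem, lower case the loop and 5 flanking bases on each side, 5′ to 3′, from GENCODE M21 transcripts on GRCm38.
Hist1h2bp (chr13:21787918-21787943, plus strand): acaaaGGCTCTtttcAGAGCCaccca
Hist1h3a (chr13:23761885-23761910, minus strand): ccaaaGGCTCTtttcAGAGCCacaca
Hist1h4h (chr13:23531453-23531478, plus strand): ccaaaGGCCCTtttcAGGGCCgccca
Hist1h4a (chr13:23760795-23760820, minus strand): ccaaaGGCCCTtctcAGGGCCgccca
Hist2h2ac (chr3:96220413-96220438, minus strand): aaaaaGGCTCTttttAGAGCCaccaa

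The loop of Hist1h4a was found in no other member, whereas 7 H4 genes share the letters of Hist1h4h, and the form in Hist2h2ac was likewise found in that gene alone. The stem-loop of Hist1h4a starts 30 bases after the stop codon, and its annotated transcript runs on for 108 bases past the loop. In the annotation, 23 members end within 100 bases of the stem-loop, 20 run on beyond that, 12 end within 25 bases of the stop codon, 5 have a tail without a stem-loop and 3 are the pseudogenes. The 5 with a tail but no stem-loop are Hist1h2bq, Hist2h2be, Hist1h1a, Hist1h2br and Hist1h2bc. Transcripts with more than 1 exon are annotated for 5 members, all H2B genes, among them Hist1h2bp, whose 2-exon form lacks the stem-loop and holds 2 polyadenylation signals (AATAAA or ATTAAA) after the stop codon.

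Promoter sequences, 250 bases before and 50 after the start, were matched for 55 members in RefSeq (GRCm38.p6). On either strand, CCAAT was held by 83.6% of the member promoters and by 37.4% of all 32851 promoters, and TATAAA by 60.0% against 13.6%. The octamer ATTTGCAT was held by 21.8% (12 genes, with Hist1h2aa and Hist1h2ba among them) against 1.74%, and the cAMP response element TGACGTCA by 7.27% (Hist1h4a, Hist1h4h, Hist1h2bj and Hist1h2ag) against 1.79%. Windows of neighbouring members on opposite strands can overlap, so that a match can count for both genes. This holds for Hist1h2bj with Hist1h2ag, Hist1h2bg with Hist1h2ae and Hist1h2bk with Hist1h2ah, and such matches were not counted once only. The bases before the start are shown for Hist1h4a, the second most abundant member, and for Hist1h2aa. The bases shown for Hist1h2aa lie between the testis pair Hist1h2aa and Hist1h2ba and overlap the promoter window matched for Hist1h2ba. Capitals mark these 4 motifs.
Hist1h4a promoter (chr13:23761250-23761499, minus strand): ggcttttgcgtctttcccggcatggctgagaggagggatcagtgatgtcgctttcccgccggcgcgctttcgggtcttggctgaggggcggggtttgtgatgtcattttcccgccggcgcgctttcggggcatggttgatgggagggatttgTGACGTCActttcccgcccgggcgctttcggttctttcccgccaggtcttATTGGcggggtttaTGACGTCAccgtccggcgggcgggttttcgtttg
Hist1h2aa promoter (chr13:23934187-23934436, plus strand): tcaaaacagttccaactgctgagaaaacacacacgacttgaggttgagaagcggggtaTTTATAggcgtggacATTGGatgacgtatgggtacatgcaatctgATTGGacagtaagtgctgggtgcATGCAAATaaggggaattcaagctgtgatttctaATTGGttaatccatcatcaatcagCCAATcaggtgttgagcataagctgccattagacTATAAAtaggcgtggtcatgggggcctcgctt

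The Hist1h4a sequence holds TGACGTCA at 2 places, starting 98 and 34 bases before the start. The Hist1h2aa sequence holds TATAAA on each strand, 32 and 192 bases before the start, with 1 octamer between them. These are matches of letters, and no binding was measured.

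Few members were abundant. A mean RNA-seq FPKM of at least 1 was reached by 18 of the 63 members and of at least 10 by 3, while 28 had a mean of at most 0.1 and Hist1h2ak was at 0 in all 12 libraries. The 3 leading genes, Hist1h2bp, Hist1h4a and Hist1h3a, made up 76.2% to 85.7% of the members' summed FPKM, depending on the library. All members together took between 0.0298% and 0.0894% of the FPKM of a library. Of the members, 55 were above 0 in the library Igf2bp3-/- RNA-seq replicate 1 and 41 to 48 elsewhere, and that library was also the deepest, with the others at a relative depth of 0.38 to 0.575 as judged from the lowest values. On a transcript of 500 bases a single fragment was worth roughly 0.0418 to 0.11 FPKM, so that members under 0.1 rest on very few fragments.

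**Figure D1:**
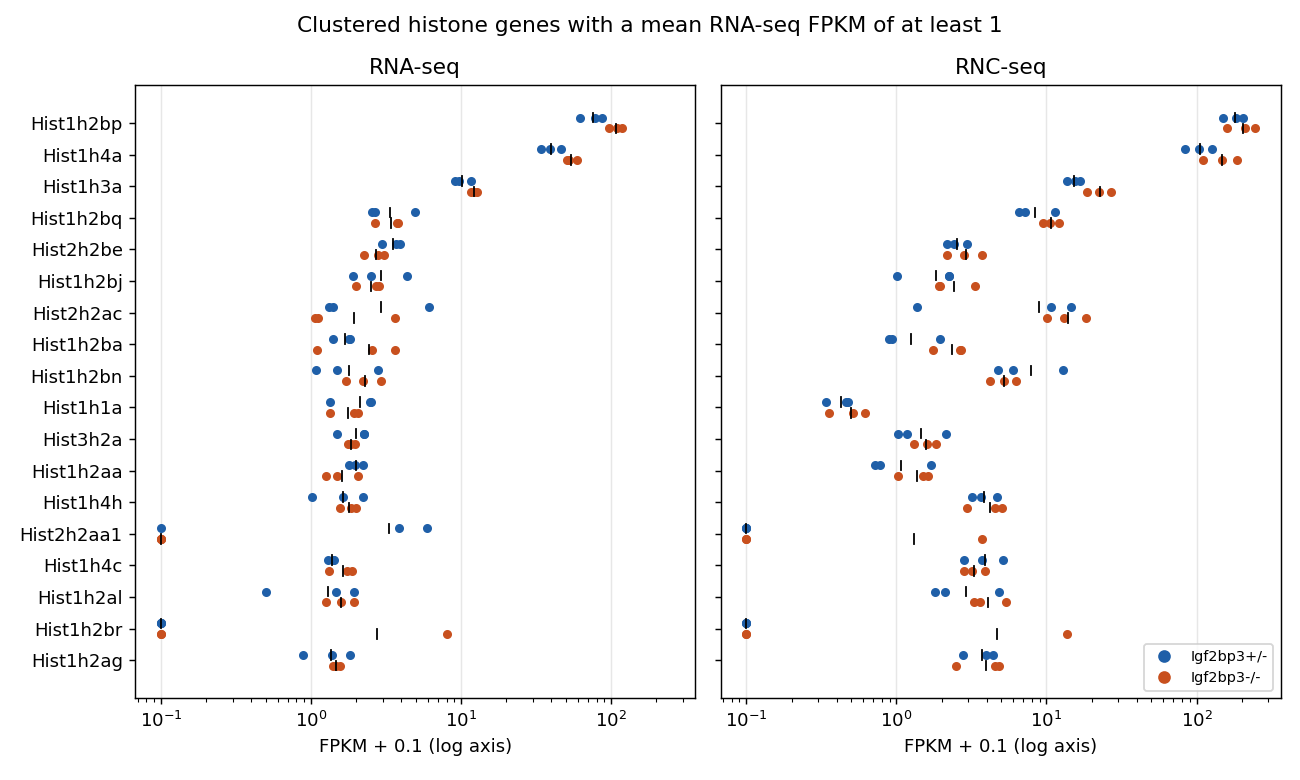
FPKM plus 0.1 on a log axis for the 18 members with a mean RNA-seq FPKM of at least 1, in RNA-seq (left) and RNC-seq (right), with 1 point for each library, coloured by genotype, and a black line at the mean of 3. Hist1h2bp and Hist1h4a lie far to the right of the other members in both assays, and Hist1h2br and Hist2h2aa1 are at 0 in most libraries.

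Hist1h2bp (chr13:21787461-21789213), a gene for the core histone H2B, was the highest. Its RNA-seq FPKM was 86.2, 77.5 and 61.5 in Igf2bp3+/- and 109.9, 96.2 and 117.8 in Igf2bp3-/-, while on polysomes it reached 183.9, 203.9 and 149.7 against 245.4, 160.5 and 209.2. Its groups do not overlap between the genotypes in RNA-seq and do so in RNC-seq. How many of all genes separate in this way was not counted. It has 12 near-identical copies among the members, so reads may have been divided between them.

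Hist1h4a (chr13:23760692-23761230), which encodes the core histone H4, has no near-identical copy. Its RNA-seq FPKM was 46.3, 39.2 and 33.9 in Igf2bp3+/- and 52.1, 50.6 and 59.0 in Igf2bp3-/-, and in RNC-seq 104.5, 126.9 and 84.3 against 184.9, 109.8 and 147.4. Here too the genotypes stand apart in RNA-seq and overlap in RNC-seq. Hist1h3a (chr13:23761853-23762386), for the core histone H3, was at 11.6, 9.63 and 8.97 against 12.1, 12.7 and 11.5 in RNA-seq and at 15.5, 16.6 and 13.5 against 27.0, 18.4 and 22.2 in RNC-seq. Its genotypes overlap in RNA-seq and do not in RNC-seq, and it has 3 near-identical copies.

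The next members of the order lie between 1 and 4 FPKM, and most neighbours differ by less than the spread of their libraries. Hist1h2bq (chr13:21806612-21810197), an H2B gene with spliced forms and 1 near-identical copy, Hist1h2br, was at 2.45, 4.84 and 2.55 in Igf2bp3+/- and 3.72, 2.59 and 3.65 in Igf2bp3-/- RNA-seq, and at 11.3, 6.48 and 7.14 against 12.1, 9.41 and 10.5 in RNC-seq. Hist2h2be (chr3:96221119-96223738), an H2B gene with a long annotated tail and no stem-loop, was at 2.89, 3.60 and 3.84 against 2.69, 2.96 and 2.17 in RNA-seq and at 2.32, 2.07 and 2.87 against 2.08, 3.62 and 2.73 in RNC-seq. Hist1h2bq was thus higher in every RNC-seq library than in any RNA-seq library, and Hist2h2be overlapped between the assays. Hist1h2bj (chr13:22043214-22043676), a further H2B gene with 8 near-identical copies, was at 4.23, 2.42 and 1.80 against 2.60, 1.90 and 2.72 in RNA-seq and at 2.15, 2.14 and 0.902 against 3.26, 1.83 and 1.85 in RNC-seq.

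Hist2h2ac (chr3:96220361-96220880), an H2A gene with 6 near-identical copies, varied most among the 10 leading members. It was at 1.30, 5.99 and 1.22 in Igf2bp3+/- and 1.01, 3.53 and 0.967 in Igf2bp3-/- RNA-seq, where replicate 2 of each genotype was the high library, and at 14.4, 10.7 and 1.28 against 18.2, 13.0 and 9.97 in RNC-seq, where Igf2bp3+/- replicate 3 was low. Hist1h2bn (chr13:21754123-21754503), an H2B gene with 12 near-identical copies, was at 2.71, 0.980 and 1.39 against 2.85, 1.60 and 2.11 in RNA-seq and at 5.92, 12.7 and 4.63 against 5.08, 4.13 and 6.16 in RNC-seq. All its RNC-seq libraries lie above its RNA-seq libraries.

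The linker and testis forms were low. Hist1h1a (chr13:23763666-23764406), which encodes the linker histone H1.1 and has no near-identical copy, was at 2.39, 1.23 and 2.43 in Igf2bp3+/- and 1.83, 1.23 and 1.95 in Igf2bp3-/- RNA-seq, and at 0.239, 0.379 and 0.364 against 0.255, 0.417 and 0.515 in RNC-seq. Every RNC-seq library lies below every RNA-seq library, the opposite order to Hist1h2bp and Hist1h4a. The other H1 members, Hist1h1c and Hist1h1d, had means of 0.125 and 0.0319 in RNA-seq.

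Hist1h2aa (chr13:23934462-23934851), for TH2A, was at 2.11, 1.85 and 1.68 against 1.40, 1.95 and 1.16 in RNA-seq and at 0.674, 0.621 and 1.60 against 1.52, 0.922 and 1.40 in RNC-seq. Hist1h2ba (chr13:23933773-23934156), for TH2B, was at 1.69, 1.31 and 1.73 against 2.46, 1.00 and 3.51 in RNA-seq and at 0.839, 1.84 and 0.798 against 2.57, 1.64 and 2.58 in RNC-seq. The ranges of the 2 testis genes overlap in both assays, and neither has a near-identical copy. Hist1h2aa overlaps Gm44344 on the opposite strand over 33.1% of its exonic bases, and since the use of strand in counting is not stated, reads of that part cannot be told apart.

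In 3 members single libraries decided the level. Hist1h2br was at 7.94 in Igf2bp3-/- RNA-seq replicate 1 and at 13.7 in Igf2bp3-/- RNC-seq replicate 3, and at 0 in the other 10 libraries. Hist2h2aa1, an H2A gene that overlaps other gene models over its whole length, was at 5.81 and 3.78 in Igf2bp3+/- RNA-seq replicates 1 and 3 and at 3.63 in Igf2bp3-/- RNC-seq replicate 3, and at 0 in the other 9. Hist1h2bk was at 24.7 in Igf2bp3-/- RNC-seq replicate 1 and between 0.416 and 2.20 elsewhere. All have near-identical copies among the members. Hist1h2br and Hist1h2bk were picked out after their values were seen.

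Levels were set against the annotated ends as a description. Among members that end within 100 bases of the stem-loop 7 of 23 had a mean RNA-seq FPKM of at least 1, among those that run on 3 of 20, among those that end near the stop codon 3 of 12, and among those with a tail but no stem-loop 4 of 5. With a polyadenylation signal in an annotated tail the figure was 7 of 20, and without one 11 of 43. Members with a near-identical copy reached it in 11 of 44 cases and those without in 7 of 19. The highest member without an annotated polyadenylation signal was Hist1h3a. Among the members with a tail but no stem-loop, Hist1h2br reached its mean through Igf2bp3-/- RNA-seq replicate 1 alone. It is a near-identical copy of Hist1h2bq, which is also counted. Hist1h1a, counted there too, has an annotated tail of 48 bases without a polyadenylation signal.

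Sums over the members of a type are less affected by the division of reads between copies that are themselves members. Some copies lie outside the members, as for the H2A genes Hist2h2aa1, Hist2h2ac and Hist1h2al. Within the H2A sums of RNA-seq, Hist2h2aa1 alone had a mean of 3.2 in Igf2bp3+/- and 0 in Igf2bp3-/-. H2B summed to 91.0 ± 13.2 FPKM in Igf2bp3+/- and 126.8 ± 14.9 in Igf2bp3-/- RNA-seq, and to 206 ± 32.0 and 246 ± 56.9 in RNC-seq (SD, n = 3). H4 followed at 43.8 ± 7.12 and 58.2 ± 3.84 in RNA-seq and 114.2 ± 22.1 and 156.8 ± 39.5 in RNC-seq. Hist1h2bp made up at least 80.2% of the H2B sum and Hist1h4a at least 90.1% of the H4 sum in every library. H3 summed to 11.5 ± 1.35 and 13.7 ± 0.286 in RNA-seq and 17.3 ± 1.94 and 24.1 ± 4.16 in RNC-seq, H2A to 13.0 ± 2.61 and 9.17 ± 1.71 against 18.9 ± 9.00 and 26.7 ± 5.35, and H1 to 2.19 ± 0.663 and 1.81 ± 0.366 against 0.419 ± 0.0451 and 0.664 ± 0.0817. The sums of H2B, H3 and H4 in RNA-seq and of H1 and H3 in RNC-seq do not overlap between the genotypes, and H1 was the type with a lower sum on polysomes than in the input in both genotypes. The H1 sums in RNC-seq were low, at 0.371 to 0.461 against 0.595 to 0.754. There Hist1h1a overlapped between the genotypes, and Hist1h1c had means of 0.0595 and 0.225. Separation of the genotypes was not counted over all genes. Of all genes tested singly, 15.7% in RNA-seq and 6.48% in RNC-seq had an unadjusted limma p under 0.05 between the genotypes. The sums were not tested.

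**Figure D2:**
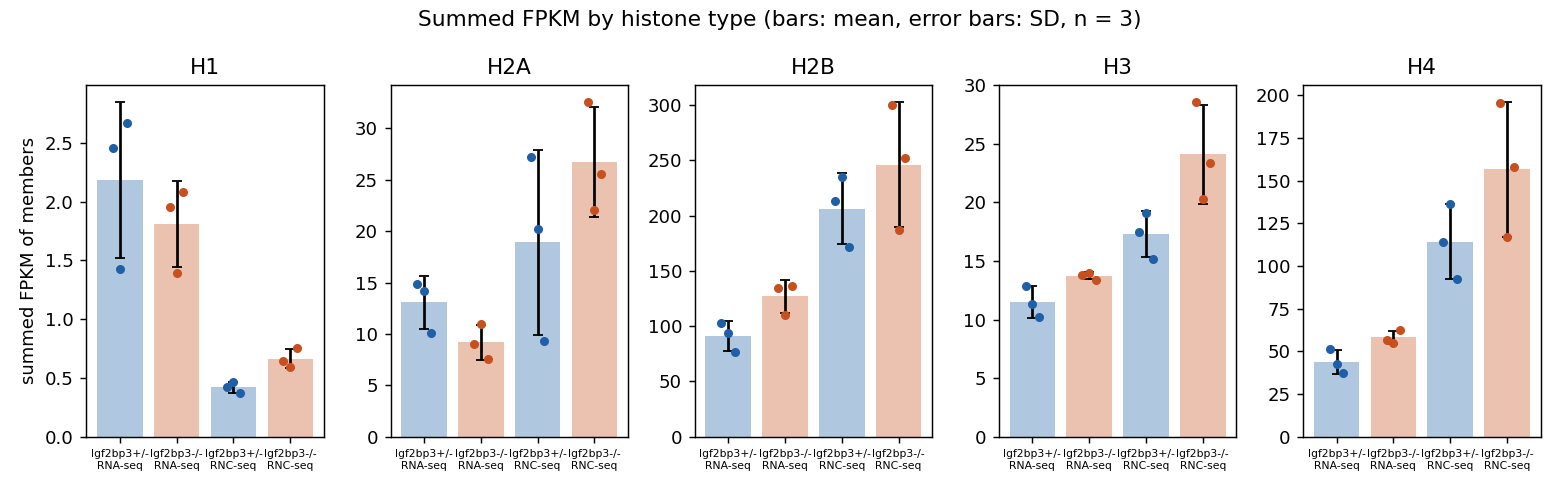
Summed FPKM of the members of each histone type in the 4 groups, with bars at the mean, error bars for the SD (n = 3) and 1 point for each library. The vertical axes differ, and H2B and H4 exceed the other types by several fold while H1 is the lowest and falls from RNA-seq to RNC-seq.

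The comparison of RNC-seq with RNA-seq within a genotype asks how far a transcript is on polysomes relative to the input, each as FPKM of its own library. In Igf2bp3+/- 38 members passed the filter on low values and 25 did not. Of these 38, 11 were higher on polysomes (28.9%), where 17.3% of all 19798 genes tested were, and 3 were lower (7.89%), where 26.3% of all genes were, at a limma Benjamini-Hochberg adjusted p under 0.05. The median log2 change, on the scale of FPKM plus 0.1, was 0.69 over the members tested and -0.14 over all genes, and over the 9 pairs of libraries the members' median ranged from 0.13 to 0.91. The filter itself bears on these values, since 8 of the 38 had a mean above 0.1 FPKM in RNC-seq alone, all with a positive change and 1 of them, Hist1h2ad, among the 11, and 3 had it in RNA-seq alone, all with a negative change. Of the 27 above 0.1 in both assays, a filter chosen after the data were seen, 10 were higher and 2 lower, and their median was 0.82, with -0.09 over all genes so filtered. Of all 17942 genes so filtered, 3331 were higher and 4503 lower. With the replicate number as a block 12 members were higher and 3 lower. In that fit 3406 of all 19798 genes were higher and 4956 lower. By type, 5 of 15 H2B, 3 of 6 H4, 1 of 5 H3 and 2 of 10 H2A genes were higher, and 1 of 2 H1 and 2 of 10 H2A genes were lower.

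Transcript length moved with this result. Histone mRNAs are short, and in the same fit the 2483 other genes whose longest annotated transcript is 300 to 700 bases had a median log2 change of 0.59 with 35.8% higher and 8.78% lower, whereas genes of 3000 bases or more had a median of -0.57. With the length trend taken out of each library, an alternative chosen after the data were seen, the members' median was 0.33 and 6 were higher and 5 lower. Under that setting 3855 of all 19284 genes were higher and 3596 lower, with a median of 0. The direction also depended on which members were counted: the 11 tested members without a near-identical copy had a median of -0.49, with 2 higher and 2 lower. Over all genes 17.3% were higher and 26.3% lower. Pseudocounts of 1 and 0.01 gave medians of 0.18 and 1.02, and without the filter on low values it was 0.21 over all 63.

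**Figure D3:**
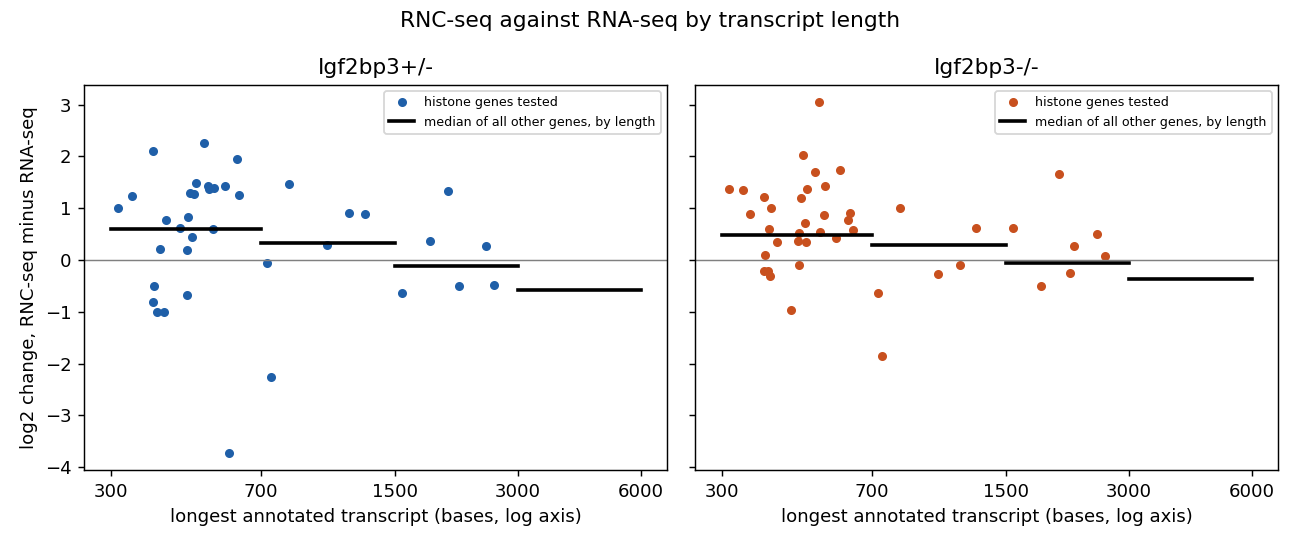
Log2 change of RNC-seq against RNA-seq for each member tested (points) against the length of its longest annotated transcript on a log axis, in Igf2bp3+/- (left) and Igf2bp3-/- (right), with the median of all other genes in 4 length classes as black lines (the last class is open above 3000 bases). The line falls with length in both genotypes, and members of 300 to 700 bases lie on both sides of it.

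Of the higher members, Hist1h2bn rose by 2.11 ± 0.43 (SE) on the log2 scale (limma adjusted p = 0.00495) and Hist1h4a by 1.39 ± 0.18 (limma adjusted p = 0.000558). The genes Hist1h2ag (1.48), Hist1h4c (1.46), Hist1h2bq (1.34) and Hist1h4h (1.30) followed, and Hist1h2bp rose by 1.26 ± 0.17 (SE). Hist1h2ag, an H2A gene with 10 near-identical copies, was at 1.72, 0.781 and 1.29 in RNA-seq and at 3.85, 4.32 and 2.67 in RNC-seq of Igf2bp3+/-. Hist1h4c (chr13:23697635-23698454), an H4 gene with no near-identical copy, was at 1.32, 1.19 and 1.30 against 5.00, 2.72 and 3.64, and Hist1h4h, an H4 gene with 1 copy, at 2.13, 1.53 and 0.914 against 3.57, 4.59 and 3.11. In none of these 3 genes do the assays overlap. With the length trend taken out, Hist1h2ag (0.91) and Hist1h4h (0.74) no longer passed, with limma adjusted p of 0.0511 and 0.051, the highest over their 18 alternatives, and the lowest were 0.00172 and 0.00251.

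Of the lower members, Hist1h1a changed by -2.26 ± 0.32 (SE, limma adjusted p = 0.000816), with a mean FPKM of 2.01 in RNA-seq and 0.328 in RNC-seq, and it passed in all 18 alternatives. The call of Hist1h2aa, -1.01 ± 0.34 (SE, limma adjusted p = 0.0392), was lost in 9 of 18 alternatives, 5 of which left out a single library (any of RNA-seq replicates 1, 2 and 3 and RNC-seq replicates 1 and 2), and its adjusted p ranged from 0.00404 to 0.116. The third, Hist2h2aa1, is listed at 0 in all Igf2bp3+/- RNC-seq libraries and in 1 of 3 RNA-seq libraries, and its call was lost in 8 of the 17 alternatives that tested it. Hist1h2ba was at a log2 change of -0.50 ± 0.32 (SE, limma adjusted p = 0.236).

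In Igf2bp3-/- the same comparison tested 43 members, and 11 were higher (25.6%, against 9.48% of 19858 genes) and 1 lower (2.33%, against 11% of all genes). The median log2 change was 0.57 over the members and -0.06 over all genes, with 0.49 over other genes of 300 to 700 bases, of which 22.7% were higher. Here 10 of the 43 were above 0.1 FPKM in RNC-seq alone, all with a positive change and none past the limit. The 33 above 0.1 in both assays had a median of 0.54, against -0.04 over all genes so filtered, with 11 higher and 1 lower. Of all 18456 genes so filtered, 1872 were higher and 2008 lower. With the replicate number as a block 14 members were higher and 1 lower, and 2017 of all 19858 genes were higher and 2260 lower. The members' median was 0.26 to 0.94 over the 9 pairs of libraries and 0.09 over the 12 tested members without a near-identical copy, of which 2 were higher and 1 lower. Without Igf2bp3-/- RNA-seq replicate 1, the deepest library, 6 members were higher and 1 lower. Leaving it out also took all genes to 463 higher and 671 lower of 19730. With the length trend taken out 9 members were higher and 1 lower, and 1718 of all 19352 genes were higher and 1510 lower.

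Here Hist2h2ac led, at a log2 change of 3.04 ± 0.44 (SE, limma adjusted p = 0.0038). Hist1h2bq (1.66), Hist1h4a (1.42), Hist1h2ag (1.37), Hist1h2al (1.35) and Hist1h2bn (1.21) came next, and Hist1h2bp rose by 0.91 ± 0.19 (SE). In Igf2bp3-/-, Hist1h2ag was at 1.30, 1.36 and 1.47 in RNA-seq and at 4.46, 2.39 and 4.75 in RNC-seq. Hist1h2al, a processed pseudogene of an H2A gene with 7 near-identical copies, was at 1.82, 1.15 and 1.48 against 5.26, 3.48 and 3.19. The assays do not overlap for either gene. Hist1h2ag lost its call in 2 of 18 alternatives, without the filter on low values and without Igf2bp3-/- RNA-seq replicate 1, and Hist1h2bn in 3, without the filter and without Igf2bp3-/- RNA-seq replicate 2 or 3. Hist1h1a was the lower member, at -1.85 ± 0.30 (SE, limma adjusted p = 0.0054), and it passed in all 18 alternatives.

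Between the genotypes 8 of the higher members were shared, which is 72.7% of each list of 11. Over all genes 1609 were shared, 46.9% of those higher in Igf2bp3+/- and 85.5% of those higher in Igf2bp3-/-. The shared members were Hist1h2bp, Hist1h4a, Hist1h3a, Hist1h2bq, Hist1h2bn, Hist1h4h, Hist1h4c and Hist1h2ag. Hist3h2ba, Hist1h2bb and Hist1h2ad passed in Igf2bp3+/- alone and Hist2h2ac, Hist1h2al and Hist1h4k in Igf2bp3-/- alone. Of these 6, Hist1h2ad was too low in RNA-seq for the test of the difference between the genotypes given next, and the other 5 did not pass it.

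**Figure D4:**
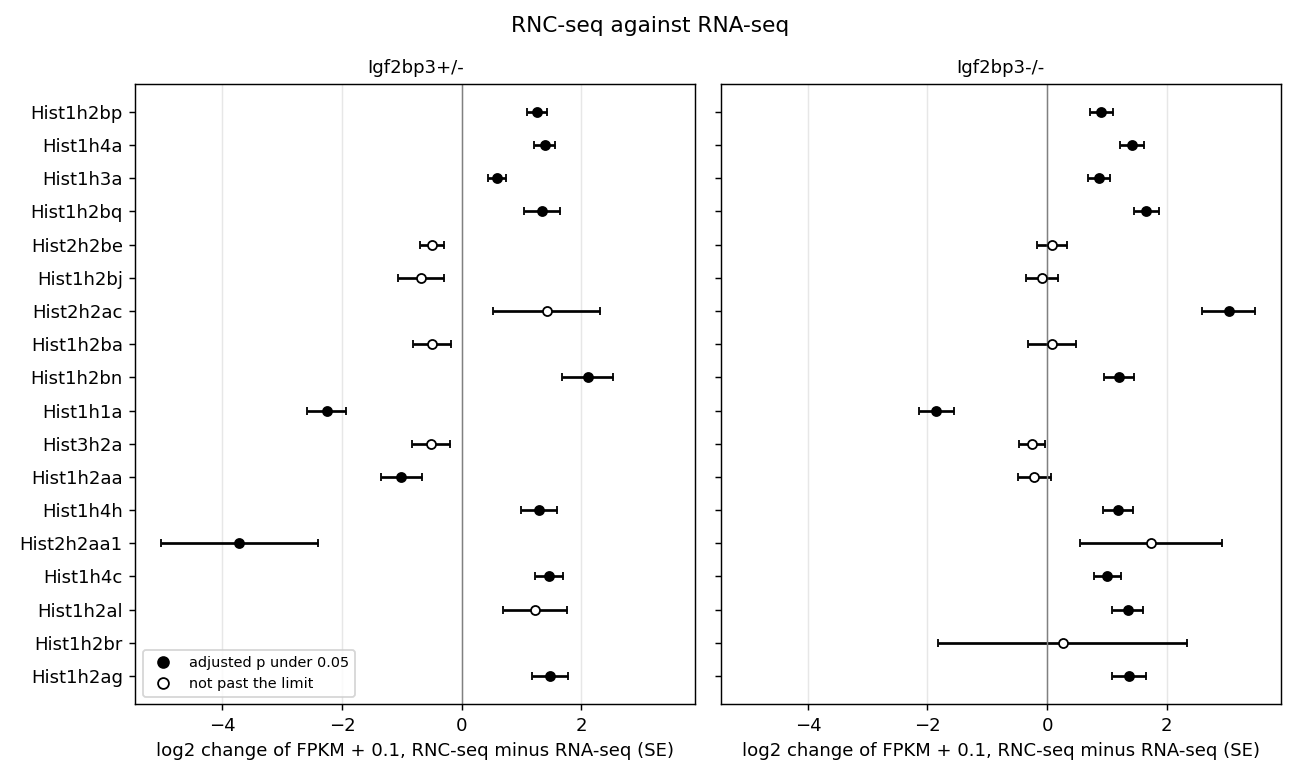
Log2 change of FPKM plus 0.1 of RNC-seq against RNA-seq, with its standard error, for the 18 members with a mean RNA-seq FPKM of at least 1 in Igf2bp3+/- (left) and Igf2bp3-/- (right). Filled points have a limma adjusted p under 0.05. Hist1h1a lies far to the left of 0 in both genotypes, while Hist1h2bp, Hist1h4a, Hist1h3a and the other shared genes lie to the right, and Hist1h2br was not tested in Igf2bp3+/-. The place of Hist2h2aa1, at 0 in 9 libraries, depends on the pseudocount.

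The test of translational efficiency (TE), the interaction of genotype and assay, asks whether the level on polysomes relative to the input differs between the genotypes. Of the 34 members tested none passed, where 0.00543% of all 18414 genes did (1 gene), and 2 members had an unadjusted limma p under 0.05, where 7.13% of all genes did. They were the H2A gene Hist2h2aa1, listed at 0 in 9 libraries, and the H1 gene Hist1h1c, and neither was above 0.1 FPKM in all 4 groups. The median log2 change was 0.14 over the members and 0.06 over all genes, and it was -0.01 without Igf2bp3+/- RNA-seq replicate 1. Among members with a mean FPKM of at least 1, the smallest p in either direction after Hist2h2aa1 belonged to Hist2h2be, 0.58 ± 0.32 (SE, limma adjusted p = 0.716), and to Hist1h2bn, -0.90 ± 0.54, and Hist1h4c, -0.46 ± 0.34. For Hist1h4a the change was 0.03 ± 0.28 (SE), for Hist1h1a 0.42 ± 0.45 and for Hist2h2ac 1.62 ± 1.11.

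The genotype comparison within RNA-seq asks whether the abundance of the transcripts differs. None of the 35 members tested passed, where 0.256% of all 20352 genes did, and 6 had an unadjusted limma p under 0.05, 4 higher and 2 lower in Igf2bp3-/-, against 15.7% of all genes. Of the 6, Hist2h2aa1 and Hist2h2ab were above 0.1 FPKM in 1 genotype alone, as were 6 of the 35 tested, and over the 29 above 0.1 in both genotypes the median was 0.07. The median log2 change was 0.17 over the members and 0.05 over all genes. It ranged from -0.01 to 0.42 over the 9 pairs of libraries and turned to -0.03 without Igf2bp3+/- RNA-seq replicate 3, the library with the lowest summed FPKM of the members. Hist1h2bp changed by 0.53 ± 0.14 (SE, limma adjusted p = 0.171) and Hist1h4a by 0.45 ± 0.13 (limma adjusted p = 0.197), and over 18 alternatives the adjusted p ranged from 0.0776 to 0.542 and from 0.0994 to 0.646. Hist2h2be changed by -0.39 ± 0.17 (SE, limma adjusted p = 0.318). Hist2h2aa1, at 0 in all Igf2bp3-/- RNA-seq libraries, passed when Igf2bp3+/- RNA-seq replicate 2, where it is also at 0, was left out. The testis forms changed by -0.33 ± 0.21 (Hist1h2aa) and 0.38 ± 0.38 (Hist1h2ba), with SE.

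Markers of the sorted cell type and of other cells moved with the genotype in the same libraries. The 10 round spermatid markers, all with a mean FPKM of at least 1, summed to 1176 to 1334 in Igf2bp3+/- and to 1509 to 1754 in Igf2bp3-/- RNA-seq, and the 7 Leydig markers to 14.6 to 21.5 against 46.4 to 52.9. Macrophage and blood markers summed to 9.79 to 11.1 against 18.7 to 20.6, Sertoli markers to 3.75 to 4.78 against 7.38 to 8.23, peritubular markers to 2.17 to 2.68 against 4.50 to 5.74, spermatogonia markers to 9.58 to 13.1 against 10.0 to 12.1, spermatocyte markers to 871 to 932 against 897 to 1055, and elongating spermatid markers to 9609 to 12254 against 10669.6 to 10823. The Sertoli and peritubular sums were each carried by 1 gene: Clu was at 2.74 to 3.63 in Igf2bp3+/- and at 6.63 to 6.79 in Igf2bp3-/-, and Dcn at 0.665 to 1.01 and 3.36 to 4.73. The other Sertoli markers summed to 0.939 to 1.15 against 0.724 to 1.43 and the other peritubular markers to 1.5 to 1.67 against 0.958 to 1.43. No marker was at 0 in all 12 libraries. In bulk samples fewer cells of a type and less RNA per cell cannot be told apart, and the part of other cells in the histone values was not tested. Of these lists only Leydig (3 of 6 tested), macrophage and blood (2 of 9), Sertoli (1 of 5) and peritubular (1 of 5) held genes that passed in RNA-seq, all higher in Igf2bp3-/-.

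Within RNC-seq none of the 42 members tested passed between the genotypes, where 0.115% of all 19051 genes did, and 4 had an unadjusted limma p under 0.05, all higher in Igf2bp3-/-, where 6.48% of all genes were past that limit in either direction. Of the 42, 7 were above 0.1 FPKM in Igf2bp3-/- alone, all with a positive change, and 1 of the 4, the H4 gene Hist1h4f, is among them. The median over the 35 above 0.1 in both genotypes was 0.18. The median log2 change was 0.22 over the members and 0.13 over all genes, and over the 9 pairs of libraries it ranged from -0.17 to 0.64. Centring each library on its median took the median of all genes to 0.01 and that of the members to 0.11. Hist1h2ba changed by 0.98 ± 0.35 (SE, limma adjusted p = 0.735) and Hist1h3a by 0.55 ± 0.22 (limma adjusted p = 0.755). Hist1h2bn changed by -0.47 ± 0.34 (SE) and Hist1h4c by -0.21 ± 0.28. Hist1h4c was at 5.00, 2.72 and 3.64 in Igf2bp3+/- and 3.82, 2.71 and 3.08 in Igf2bp3-/-, and its change was 0.01 without Igf2bp3+/- RNC-seq replicate 1. Hist1h4a changed by 0.47 ± 0.24 (SE), close to its value in RNA-seq.

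**Figure D5:**
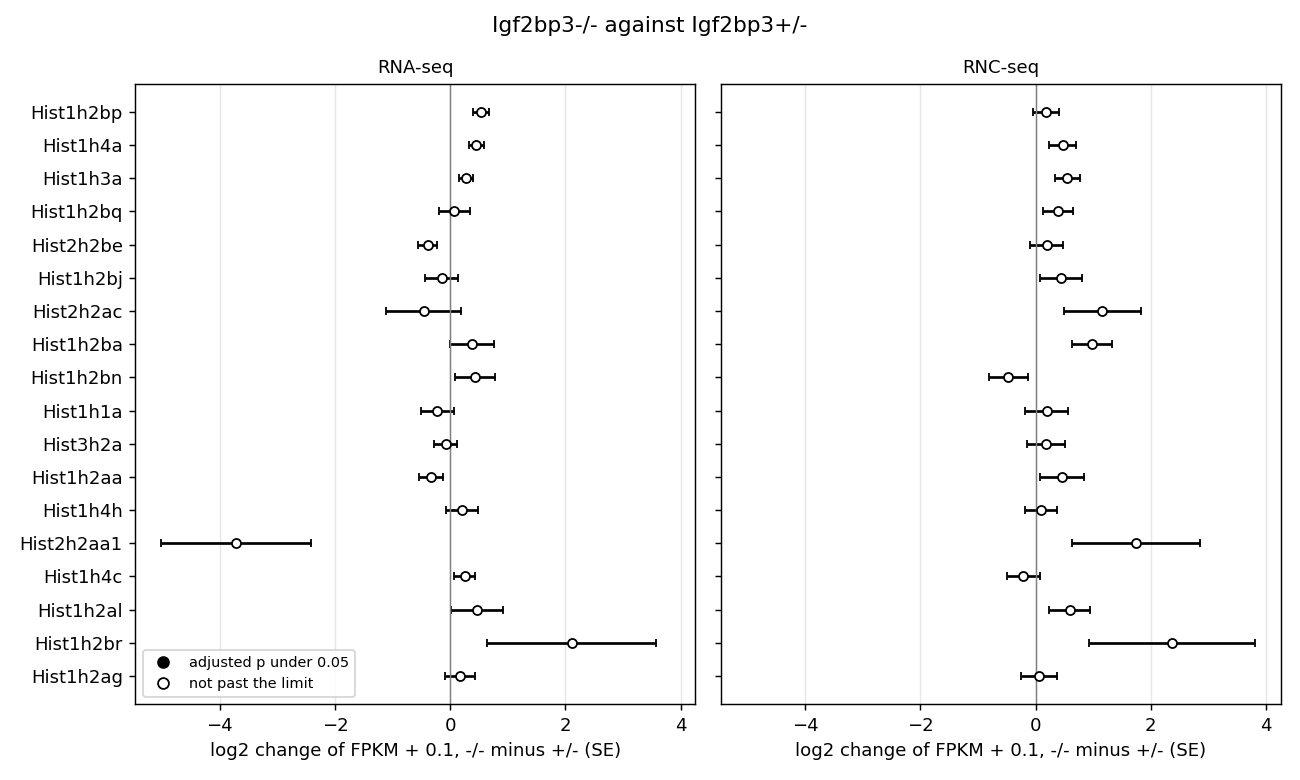
Log2 change of FPKM plus 0.1 of Igf2bp3-/- against Igf2bp3+/-, with its standard error, for the 18 members with a mean RNA-seq FPKM of at least 1, in RNA-seq (left) and RNC-seq (right). Hist2h2aa1 and Hist1h2br, at 0 in most libraries, have places that depend on the pseudocount. All points are open, since no member had a limma adjusted p under 0.05. Hist1h2bp, Hist1h4a and Hist1h3a lie to the right of 0 in both assays, with small errors in RNA-seq.

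The genes that make and degrade histone mRNAs were read from a list of 24, of which 22 were in the table and 18 had a mean FPKM of at least 1. Slbp, for the protein that binds the stem-loop, was at 61.4, 53.1 and 51.9 in Igf2bp3+/- and 64.8, 63.1 and 78.4 in Igf2bp3-/- RNA-seq, and at 73.3, 53.9 and 64.5 against 70.9, 53.7 and 60.3 in RNC-seq. In RNA-seq its level was in the range of Hist1h2bp and Hist1h4a, and in RNC-seq it lay below both and above Hist1h3a. The histone values cover only the polyadenylated part of those mRNAs. The changes of Slbp, 0.31 ± 0.11 (SE) in RNA-seq and -0.05 ± 0.21 in RNC-seq, did not pass. Npat, a coactivator of histone gene transcription, had a mean of 5.05 in RNA-seq, and Lsm11, of the U7 particle that cleaves histone mRNA, one of 0.0493. None of the 21 genes tested passed between the genotypes in RNA-seq, RNC-seq or TE.

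On polysomes 13 of these 21 genes were lower and 4 higher in Igf2bp3+/-, and 5 lower and 3 higher in Igf2bp3-/-, with medians of -0.51 and -0.46. Over all genes 26.3% were lower and 17.3% higher in Igf2bp3+/-, and 11% and 9.48% in Igf2bp3-/-. These counts were not adjusted for transcript length. The uridyltransferase Zcchc6 (-2.48), the transcription factor Pou2f1 (-1.80), which binds the octamer, and the uridyltransferase Zcchc11 (-1.78) changed most in Igf2bp3+/-, followed by Casp8ap2 (-1.35), Upf1 (-1.30), Srrt (-1.14), Npat (-1.08), Sympk (-1.03), Cstf2t (-0.99), Cstf2 (-0.88), Eri1 (-0.51), Cpsf3 (-0.51) and Cpsf2 (-0.50). The small Lsm1 (1.28) and Lsm10 (1.21), Mif4gd (0.39) and the cap-binding Ncbp2 (0.60) were higher there. Lsm1, Lsm10 and Ncbp2 also passed as higher in Igf2bp3-/-. The lower genes in Igf2bp3-/- were Zcchc6 (-1.93), Zcchc11 (-1.36), Cstf2t (-1.09), Srrt (-1.01) and Cpsf3 (-0.59).

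The 21 S-phase replication genes served to show how much of that programme the sorted cells held. They summed to 331 to 352 FPKM in Igf2bp3+/- and 306 to 341 in Igf2bp3-/- RNA-seq, with 14 at a mean of at least 1, and Chaf1a, of the chromatin assembly factor, was the highest with a mean of 93.4. Of the subunits of the replicative helicase, Mcm7 had a mean of 82.2, Mcm5 of 2.68, Mcm6 of 2.03, Mcm4 of 0.64, Mcm3 of 0.318 and Mcm2 of 0.206. None of 20 tested passed between the genotypes in RNA-seq. On polysomes in Igf2bp3+/-, 3 of 18 were higher and 6 lower, where 17.3% and 26.3% of all genes were. The histone variants outside the clusters had a higher summed FPKM than the clustered genes. After poly(A) selection the values of the clustered genes leave out their stem-loop-ended mRNAs, so that this does not compare all transcripts of the 2 sets. Their 17 genes summed to 587 to 737 in Igf2bp3+/- and 781 to 946 in Igf2bp3-/- RNA-seq, with H2afb1, for a short H2A variant of the testis (mean of 186.7), and H3f3a, for the replacement histone H3.3 (185.4), as the highest. On polysomes 8 of 16 variants were higher and 1 lower in Igf2bp3+/-, with a median of 0.56, and 8 of 15 higher and 2 lower in Igf2bp3-/-, with a median of 0.81. In Igf2bp3-/- 9.48% of all genes were higher and 11% lower. The 7 genes of the histone-to-protamine exchange, with Hist1h1t among them, had medians of 0.03 in RNA-seq and 0.21 in RNC-seq between the genotypes, and none passed.

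Igf2bp3 transcript was at 33.4 to 38.6 FPKM in Igf2bp3+/- and 31.4 to 32.5 in Igf2bp3-/- RNA-seq, which does not check the labels, since the allele is a frameshift. A single gene, CT010467.1, took 5.68% to 19.4% of the FPKM of a library, and leaving it out of the scale is among the alternatives.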

How the data were processed

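The authors deposited 1 table of FPKM for 12 libraries. Per the labels and methods, reads were trimmed with Trim Galore 0.6.6, aligned with HISAT2 (build GRCm38) and counted into FPKM by StringTie 2.1.7. The labels and the methods name different library kits and sequencers, and strand use is not stated. Date-like symbols (25) were left out. Depth is unknown, and only a relative depth was read from the lowest values. Values were tested as log2(FPKM + 0.1) with limma 3.58.1 (R 4.3.3), intensity trend, genes with a mean FPKM above 0.1, two-sided, Benjamini-Hochberg over all genes, limit 0.05, without a replicate block, after tests on simulated data. The labels call the 3 samples of a group biological replicates. A near-identical copy is another gene whose transcript matches 50% or more of a member's longest transcript at 95% identity or more (BLAST). The members and lists (histone mRNA metabolism, S-phase, variants, histone-to-protamine, 8 marker lists) were chosen with earlier results of these data known. Genes named with values in every library were the testis forms, the 10 highest members in RNA-seq and, per comparison, up to 6 members past the limit in a direction with a mean of at least 1, or the 2 with the smallest p. Deviations of RNA-seq and RNC-seq libraries with the same number had correlations of -0.0583 to 0.0894 over 18414 genes, and no source ties a number to an extract, so that the numbers were not taken as pairs.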

Additional observations from a re-analysis of the deposited data

How the results depend on the processing

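The alternatives changed the pseudocount, filter, scaling, library weights, model, copies or single libraries. At an unadjusted limma p under 0.05 with a change over 1.5-fold, 3 members passed between the genotypes in RNA-seq, 3 in RNC-seq and 2 in TE, against 0, where 5.45%, 5.78% and 6.55% of all genes tested passed. Leaving out 1 library gave 0 to 1 members in RNA-seq with medians of -0.03 to 0.31, where 0.0441% to 0.186% of all genes passed. The median change on polysomes in Igf2bp3+/- became 0.18 and 1.02 with pseudocounts of 1 and 0.01, 0.21 without the filter, 0.97 with quantile normalization and 0.33 with the length trend removed. Without near-identical copies it was -0.49, with 4 members past the limit in Igf2bp3+/- and 3 in Igf2bp3-/-. Over all genes 43.6% and 20.5% were past the limit in either direction. In Igf2bp3-/- 7 passed without the filter and 7 to 13 without 1 library, where 8.14% and 5.75% to 32.7% of all genes did. Rescaled without the largest gene, the log2 ratio of the H3 sums in RNC-seq over RNA-seq fell to 0.37 in Igf2bp3+/- and 0.58 in Igf2bp3-/-. Both moved beyond the spread of the libraries. Hist1h4c in RNC-seq between the genotypes ranged from -0.42 to 0.01 without 1 library, and reversed without Igf2bp3+/- replicate 1. Centring moved the median of all genes on polysomes in Igf2bp3+/- from -0.14 to 0.04, and the genes higher and lower from 3431 and 5205 to 4848 and 4109. The causes were not tested. With the replicate number as a block the members past the limit were 15 in Igf2bp3+/- and 15 in Igf2bp3-/- on polysomes and 0 in the other comparisons, with medians of 0.69, 0.57, 0.17, 0.22 and 0.14. Of all genes, 42.2% in Igf2bp3+/- and 21.5% in Igf2bp3-/- were past the limit on polysomes with the block. Input and polysome RNA were parts of the same extracts, but no source says that a number marks an extract, and correlations of same-numbered libraries were -0.0144 to 0.154 between genotypes and -0.0583 to 0.0894 between assays. Members under 0.1 FPKM cannot be resolved at this depth.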
